A study of Mus musculus with 8 samples.

Results

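The 9 genes described here encode extracellular proteoglycans, and their transcripts were followed in mouse embryonic fibroblasts (MEFs) with and without Smurf2. They comprise 7 small leucine-rich proteoglycan genes (Bgn, Dcn, Lum, Ogn, Aspn, Fmod and Prelp) and the genes of the large proteoglycans versican (Vcan) and perlecan (Hspg2). Members were chosen by name, as transcript clusters (the probe groups of the array) whose only gene symbol was one of the 9. Each of the 9 genes had 1 such cluster, out of 17501 genes with a symbol of their own. No filter on low values was applied, so that all 9 entered every test.

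MEFs are connective tissue cells grown out of a dissociated embryo, and RNA of 8 samples was hybridised to 1 Affymetrix array each. Smurf2-/- cells were sampled from the mixed BL background, a cross of 129SVJ with NIH Black Swiss mice (passages 33 and 6), and from the C57B6 background (passages 28 and 7), and wild-type cells were sampled at the same passages of the same backgrounds. Passages 28 and 33 are called late here and passages 6 and 7 early, after the labels. Per the labels, the Smurf2-/- mixed BL cells came from 3 pooled embryos, the wild-type mixed BL cells from 2, and each C57B6 culture from 1 embryo. All cells were grown in the same medium with fetal bovine serum and antibiotics, and no treatment is given in the labels. The sample descriptions give the embryos as E14.5, whereas the growth protocol gives day 11.5. Whether early and late arrays shared a culture is not stated, and the arrays may not be independent. With 1 array per combination of genotype, background and passage class, limma p-values rest on how far matched pairs of arrays disagreed. That disagreement mixes differences between conditions with array-to-array spread, which may be only technical.

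Small leucine-rich proteoglycans have a curved core of leucine-rich repeats that binds collagen fibrils and sets their spacing and width, and several of them also bind TGF-beta and keep it in the matrix. Versican is a chondroitin sulfate proteoglycan that binds hyaluronan and swells the matrix around moving and dividing cells. Perlecan carries heparan sulfate chains, holds basement membranes together and stores growth factors. Smurf2 is a HECT-type ubiquitin ligase that marks Smad proteins and TGF-beta receptor complexes for degradation, and fibroblasts are a main source of these proteoglycans in connective tissue.

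Every value below is a log2 difference from the median of that gene over the 8 arrays, because the deposited values were centred gene by gene. Levels of different genes therefore cannot be set against each other, and the fibroblast label could be examined only for change and not for presence. The fibroblast markers, 10 of 10 measured, had a median of -0.46 in the late Smurf2-/- C57B6 array and of -0.16 to 0.12 in the other 7 arrays. Smurf2 averaged -0.88 ± 0.38 in Smurf2-/- and 0.69 ± 0.22 in wild-type arrays (SD, n = 4 each), without overlap (exact two-sided permutation p = 0.0286, the smallest that 4 against 4 arrays allow). The first principal component of all genes, with 29.6% of the variance, placed the late Smurf2-/- arrays at 33.3 (mixed BL) and 35.3 (C57B6), against -27.5 to 4.59 for the other 6. In those 2 arrays the proliferation markers, 9 of 10 measured, had medians of 0.65 and 1.03, against -0.12 to 0.02 elsewhere. The part of proliferation and of fibroblast marker level in the results below was not tested. In bulk RNA, fewer cells that make a transcript and less transcript per cell cannot be told apart.

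The members differed in how far their values spread over the arrays. From the lowest to the highest array, Ogn spanned 5.63 log2 units (49.4-fold), Dcn 4.92 (30.3-fold), Aspn 4.70 (26.0-fold), Lum 4.40 (21.2-fold) and Prelp 3.63 (12.4-fold). Vcan spanned 1.79, Fmod 1.58, Hspg2 1.24 and Bgn 0.92. Among all genes 4.03% spanned more than 2 log2 units, as did 5 of the 9, and 0.36% more than 4, as did 4 of the 9. Only Mest had a larger range than Ogn. These ranges are given without a test, since the members were chosen with results of these data known.

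**Figure D1:**
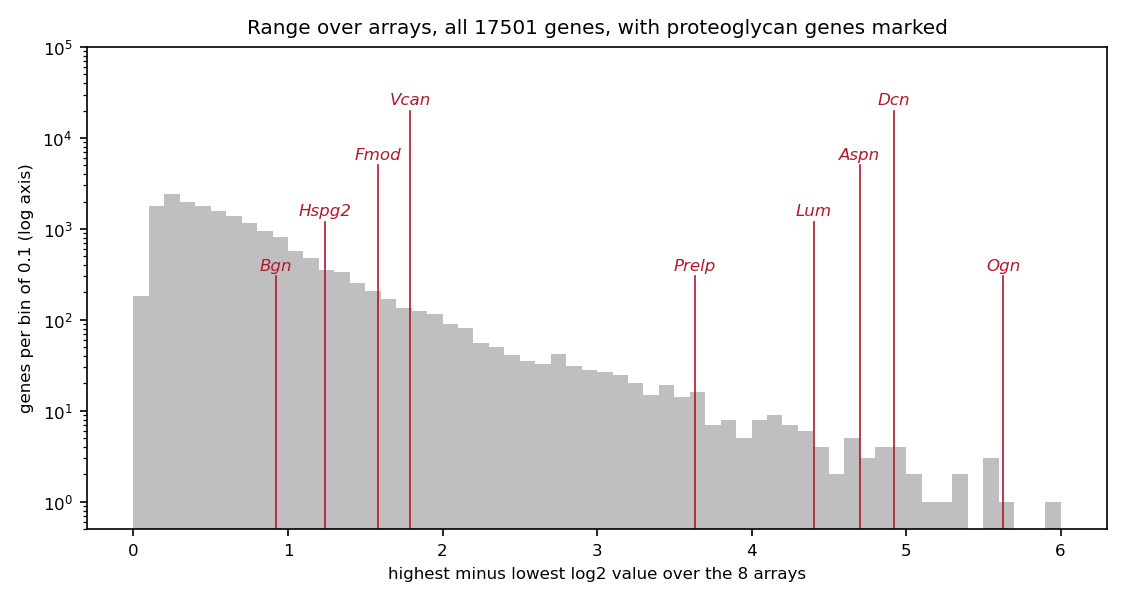
Histogram of the range (highest minus lowest log2 value over the 8 arrays, horizontal axis) of all 17501 genes, with the number of genes per bin on a log axis; red lines mark the 9 proteoglycan genes, their heights only separate the names. Ogn, Dcn, Aspn, Lum and Prelp lie in the sparse right tail, and Bgn, at 0.92, near the bulk of genes.

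Several of the wide-ranging genes are close neighbours on the chromosome, as small leucine-rich proteoglycan genes arose by duplication of gene blocks. In the RefSeq table of GRCm38.p6, Dcn and Lum are adjacent protein-coding genes on chromosome 10, Prelp and Fmod are adjacent on chromosome 1, and Aspn and Ogn on chromosome 13 are parted only by Omd. Promoter sequences from RefSeq (GRCm38.p6) matched 7 of the 9 members; the 250 bases before the annotated start of 2 neighbour pairs are shown, because the members of each pair are compared in the results. Capitals mark matches on either strand to any of 5 motifs, where N is any base. The Smad box was searched as CAGAC and the AP-1 site was searched as TGANTCA. The E-box was searched as CANNTG, the TATA box was searched as TATAAA, and the GC box was searched as GGGCGG. Aspn lies at chr13:49544193-49544442 (plus strand), Ogn at chr13:49607765-49608014 (plus strand), Fmod at chr1:134037004-134037253 (plus strand) and Prelp at chr1:133921402-133921651 (minus strand).
Aspn: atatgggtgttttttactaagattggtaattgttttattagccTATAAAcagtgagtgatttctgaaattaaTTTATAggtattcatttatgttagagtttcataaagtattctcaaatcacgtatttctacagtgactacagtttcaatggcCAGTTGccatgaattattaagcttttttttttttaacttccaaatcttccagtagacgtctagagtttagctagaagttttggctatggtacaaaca
Ogn: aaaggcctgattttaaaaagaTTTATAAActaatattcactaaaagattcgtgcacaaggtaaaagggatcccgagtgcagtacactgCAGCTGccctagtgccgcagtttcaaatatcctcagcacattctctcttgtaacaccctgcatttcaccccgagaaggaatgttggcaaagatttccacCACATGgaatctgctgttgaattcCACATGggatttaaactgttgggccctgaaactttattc
Fmod: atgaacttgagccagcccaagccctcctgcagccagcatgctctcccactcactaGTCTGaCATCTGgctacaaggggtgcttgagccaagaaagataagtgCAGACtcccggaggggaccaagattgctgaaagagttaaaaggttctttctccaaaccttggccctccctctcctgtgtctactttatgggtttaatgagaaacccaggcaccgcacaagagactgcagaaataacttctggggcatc
Prelp: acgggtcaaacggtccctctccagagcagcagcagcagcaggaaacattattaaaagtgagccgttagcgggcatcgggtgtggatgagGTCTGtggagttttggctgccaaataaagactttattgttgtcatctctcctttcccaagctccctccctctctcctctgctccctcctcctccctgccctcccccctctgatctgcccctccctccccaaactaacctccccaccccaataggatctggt

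The neighbours Aspn and Ogn shared TATA box letters, with 2 matches each, which 12.4% of the 32851 promoter windows of that length contained. In Ogn the 2 matches overlap, on opposite strands. Fmod held 2 Smad box matches and Prelp 1, against none in Bgn, Ogn, Aspn, Vcan and Hspg2, and 42.2% of all windows held at least 1. The promoters of Hspg2, Bgn and Vcan were richer in G and C (70%, 64.4% and 62.4%, against a median of 52.4% over all windows) and held 5, 3 and 2 GC boxes, a motif present in 32.7% of windows. The Aspn and Ogn windows had 30% and 42% G and C and no GC box. No AP-1 letters were found in any of the 7 windows, and 6.75% of all windows held them. An E-box, present in 66.2% of windows, was found 3 times in Ogn, 1 time each in Aspn, Fmod, Bgn and Vcan, and not in Prelp or Hspg2. A match is a string of letters and not a binding site.

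Dcn encodes decorin, the small proteoglycan that coats collagen fibrils and binds TGF-beta. In Smurf2-/- arrays Dcn stood at 2.44 (late mixed BL), 1.66 (early mixed BL), -2.49 (late C57B6) and -0.26 (early C57B6), and in wild-type arrays at -2.09, 1.74, -2.17 and 0.26 for the same conditions. Of the 4 late arrays, 3 lay between -2.49 and -2.09, whereas the late Smurf2-/- mixed BL array was the highest of all 8. Late against early, Dcn thus differed by -3.83 in wild-type mixed BL, -2.43 in wild-type C57B6 and -2.22 in Smurf2-/- C57B6, and by 0.77 in Smurf2-/- mixed BL. The mean late minus early difference was -1.93 ± 0.88 (SE), and the limma adjusted p over all genes was 0.329. The difference was -2.93 without the late Smurf2-/- array of mixed BL cells and -1.12 without the late wild-type array of that background.

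The Smurf2-/- and wild-type values of Dcn were close in 3 of 4 conditions and far apart in the fourth. The differences were -0.08 in early mixed BL, -0.32 in late C57B6 and -0.52 in early C57B6, against 4.52 (23.0-fold) in late mixed BL. The mean over the 4 pairs, 0.90 ± 0.88 (SE, limma adjusted p = 0.786), was -0.11 without the late Smurf2-/- array of mixed BL cells and 0.09 without the late wild-type array of that background. Between backgrounds, Dcn was higher in mixed BL in 4 of 4 pairs, by 4.92 and 1.92 in late and early Smurf2-/- cells and by 0.08 and 1.48 in late and early wild-type cells. Their mean of 2.10 ± 0.88 (SE, 4.29-fold) did not pass (limma adjusted p = 0.386), and was 1.10 without the late Smurf2-/- mixed BL array.

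Lum encodes lumican, a keratan sulfate proteoglycan best known for keeping corneal collagen fibrils even. Lum values in Smurf2-/- arrays were 3.89 (late mixed BL), 0.44 (early mixed BL), -0.47 (late C57B6) and -0.44 (early C57B6), and in wild-type arrays at -0.51, 0.71, -0.52 and 1.73. The 4 lowest values lay close together, at -0.52 to -0.44. Centred values give no signal over background, so whether these 4 lay near the detection floor cannot be told. Lum in the late Smurf2-/- mixed BL array stood 2.16 above the next highest. With its neighbour Dcn it shared the highest array and the low late wild-type arrays: Lum differed between genotypes by 4.40 (21.1-fold) in late mixed BL, and by 0.05 in late C57B6, -0.26 in early mixed BL and -2.17 in early C57B6. Averaged over pairs, Lum differed by 0.50 ± 1.09 (SE) for Smurf2-/- against wild-type, by -0.01 ± 1.09 for late against early and by 1.06 ± 1.09 for mixed BL against C57B6, with limma adjusted p of 0.906, 0.996 and 0.780. Without the late Smurf2-/- mixed BL array the 3 values were -0.75, -1.27 and -0.20. Over the 8 arrays Dcn and Lum correlated with r = 0.75 (Spearman rho = 0.86), and r was 0.68 without that array. The points share arrays and possibly cultures, and this is a description.

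**Figure D2:**
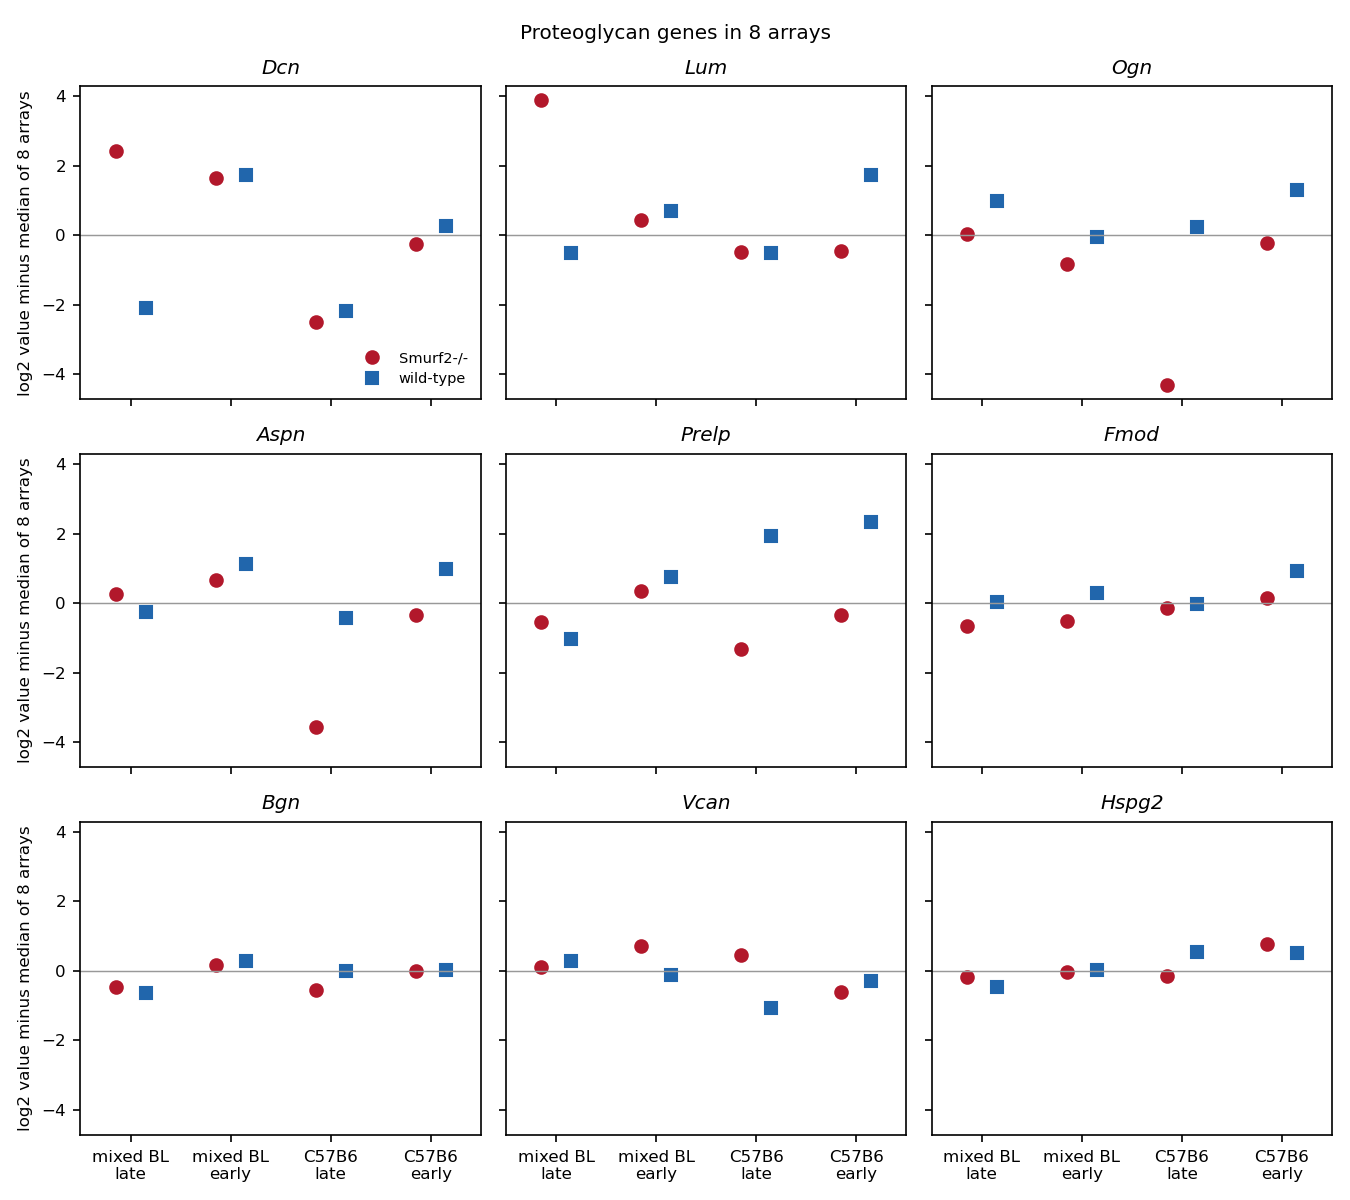
Values of the 9 genes in each of the 8 arrays (vertical axis, log2 value minus the median of the 8 arrays), by background and passage class (horizontal axis), with Smurf2-/- arrays as red circles left of wild-type arrays as blue squares; each point is 1 array. Dcn and Lum peak in late Smurf2-/- mixed BL cells at 2.44 and 3.89, and Ogn and Aspn reach -4.32 and -3.56 in late Smurf2-/- C57B6 cells.

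Ogn encodes osteoglycin, also called mimecan, a small proteoglycan of bone and connective tissue that takes part in fibril formation. Ogn values in Smurf2-/- arrays were 0.04 (late mixed BL), -0.82 (early mixed BL), -4.32 (late C57B6) and -0.22 (early C57B6), and in wild-type arrays at 0.98, -0.04, 0.23 and 1.31. The late Smurf2-/- C57B6 array lay 3.49 below the next lowest, and the other 7 arrays lay between -0.82 and 1.31. Ogn was lower in Smurf2-/- cells in 4 of 4 pairs, by -0.94 in late mixed BL, -0.78 in early mixed BL, -4.55 (23.3-fold) in late C57B6 and -1.53 in early C57B6. Among all genes 9.35% were lower and 11% higher in 4 of 4 pairs. The mean was -1.95 ± 0.96 (SE, 3.86-fold, limma adjusted p = 0.656), and -0.86 without the late Smurf2-/- C57B6 array.

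The passage difference of Ogn had opposite signs in the 2 backgrounds. Late minus early values were 0.86 in Smurf2-/- and 1.02 in wild-type mixed BL cells, against -4.10 in Smurf2-/- and -1.08 in wild-type C57B6 cells. The difference between these differences was 3.53 ± 1.37 (SE, unadjusted p = 0.0505, limma adjusted p = 0.545), which did not pass. Over all pairs Ogn differed by -0.83 ± 0.96 for late against early and by 0.79 ± 0.96 for mixed BL against C57B6 (SE, limma adjusted p = 0.670 and 0.826), and both turned sign, to 0.26 and -0.30, without the late Smurf2-/- C57B6 array. For this interaction an unadjusted p under 0.05 was found in 9.19% of genes and in none of the 9 members.

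Aspn encodes asporin, a relative of decorin with an aspartate-rich start that binds collagen and TGF-beta. Aspn values in Smurf2-/- arrays were 0.25 (late mixed BL), 0.65 (early mixed BL), -3.56 (late C57B6) and -0.36 (early C57B6), and in wild-type arrays at -0.25, 1.14, -0.42 and 0.99. As with Ogn, the late Smurf2-/- C57B6 array stood apart, 3.14 below the next. Aspn was lower at late passage in 4 of 4 pairs, by -0.41 in Smurf2-/- and -1.38 in wild-type mixed BL and by -3.21 in Smurf2-/- and -1.42 in wild-type C57B6. Among all genes 11.9% were lower and 15.1% higher in 4 of 4 pairs. The mean of -1.60 ± 0.62 (SE, 3.04-fold) had an unadjusted p of 0.0430 and a limma adjusted p of 0.276, and was -0.92 without the late Smurf2-/- C57B6 array. Between genotypes Aspn differed by 0.49 in late and -0.48 in early mixed BL and by -3.14 in late and -1.35 in early C57B6, with a mean of -1.12 ± 0.62 (SE, limma adjusted p = 0.674). It was higher in mixed BL in 4 of 4 pairs, against 10.4% of genes, with a mean of 1.28 ± 0.62 (SE, 2.44-fold, limma adjusted p = 0.444). Without the late Smurf2-/- C57B6 array these were -0.44 for genotype and 0.60 for background, and without the late Smurf2-/- mixed BL array -1.70 and 0.70.

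Aspn and Ogn correlated with r = 0.85 over the 8 arrays, but with r = 0.02 without the late Smurf2-/- C57B6 array, so that their likeness rested on that array. Omd, which encodes osteomodulin and lies between them, stood at -0.28 in that array, within the -0.35 to 1.78 of the other 7. Ecm2, on the other side of Aspn, and Nol8, on the other side of Ogn, both had their lowest value in that array, at -0.12 and -0.33, but spanned only 0.47 and 0.67 log2 units over the 8 arrays.

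Prelp encodes prolargin, an arginine- and proline-rich member that links collagen to the heparan sulfate of basement membranes. In Smurf2-/- arrays Prelp stood at -0.54 (late mixed BL), 0.35 (early mixed BL), -1.31 (late C57B6) and -0.35 (early C57B6), and in wild-type arrays at -1.03, 0.74, 1.93 and 2.32. The 2 wild-type C57B6 arrays were the highest of all 8. Smurf2-/- minus wild-type values were -3.25 (9.49-fold) and -2.67 (6.36-fold) in late and early C57B6, against 0.49 and -0.39 in late and early mixed BL. The genotype difference in mixed BL minus that in C57B6 was 3.01 ± 0.46 (SE), with an unadjusted p of 0.00135 and a limma adjusted p of 0.939. Prelp was the only member of the 9 with an unadjusted p under 0.05 for this interaction, which 3.18% of genes had, and limma called 0 genes for it. The interaction lay between 2.49 and 3.52 when any 1 array was left out. Each C57B6 culture came from 1 embryo. If early and late arrays shared a culture, leaving out 1 array kept its partner from the same embryo. That range would then not show how far embryos differ. Over all pairs Prelp differed by -1.45 ± 0.65 (SE, limma adjusted p = 0.651) between genotypes, and late minus early values were negative in 4 of 4 pairs, with a mean of -1.003 ± 0.65 (SE, limma adjusted p = 0.468). That mean was -0.44 when the late wild-type array of mixed BL cells was left out and -1.53 when that of C57B6 cells was. Between backgrounds it differed by -0.77 ± 0.65 (SE, limma adjusted p = 0.710), a value that ranged from -1.17 to -0.20 with any 1 array left out. It was -0.20 when the late wild-type array of mixed BL cells was omitted and -0.24 when that of C57B6 cells was. The genotype difference was -0.92 without the late wild-type C57B6 array.

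Fmod encodes fibromodulin, which guides collagen cross-linking in tendon and skin. In Smurf2-/- arrays Fmod stood at -0.66 (late mixed BL), -0.51 (early mixed BL), -0.14 (late C57B6) and 0.14 (early C57B6), and in wild-type arrays at 0.03, 0.29, -0.03 and 0.92. Smurf2-/- values were lower in 4 of 4 pairs, by -0.69 and -0.81 in late and early mixed BL and by -0.11 and -0.78 in late and early C57B6, although the groups overlapped. The mean of -0.60 ± 0.15 (SE, 1.51-fold) had the smallest unadjusted p of the 9 members for genotype, 0.00787, and a limma adjusted p of 0.651. Fmod also had an unadjusted p under 0.05 for passage, at -0.41 ± 0.15 (SE, limma adjusted p = 0.260, 4 of 4 pairs lower), and for background, at -0.44 ± 0.15 (SE, limma adjusted p = 0.301, 3 of 4 pairs lower). The passage value was -0.24 without the late wild-type C57B6 array.

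Bgn, the gene of biglycan, is X-linked and encodes the closest relative of decorin, a matrix proteoglycan that also acts as a signal of tissue damage. In Smurf2-/- arrays Bgn stood at -0.46 (late mixed BL), 0.17 (early mixed BL), -0.56 (late C57B6) and -0.0015 (early C57B6), and in wild-type arrays at -0.63, 0.30, 0.0015 and 0.01. Of the late arrays, 3 lay between -0.63 and -0.46, and the late wild-type C57B6 array stood with the early ones. The late minus early difference was -0.53 ± 0.16 (SE, 1.45-fold, limma adjusted p = 0.197), lower in 4 of 4 pairs, of which the wild-type C57B6 pair differed by only -0.01. It was -0.70 without the late wild-type C57B6 array and between -0.62 and -0.40 with any other array left out. Between genotypes Bgn differed by -0.14 ± 0.16 and between backgrounds by -0.02 ± 0.16 (SE, limma adjusted p = 0.819 and 0.985). Xist, the RNA of the inactive X chromosome, averaged -1.84 ± 0.23 in Smurf2-/- and 2.52 ± 0.74 in wild-type arrays (SD, n = 4 each), so that genotype and the sex of the embryos cannot be told apart for any gene described here. If early and late arrays shared a culture, genotype within a background also cannot be told apart from the embryo or pool of embryos used.

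Vcan, the versican gene, stood at 0.12 (late mixed BL), 0.71 (early mixed BL), 0.46 (late C57B6) and -0.62 (early C57B6) in Smurf2-/- arrays, and at 0.28, -0.12, -1.08 and -0.28 in wild-type arrays. The sign of its genotype difference changed from condition to condition: -0.15 and 0.84 in late and early mixed BL, and 1.54 and -0.33 in late and early C57B6. The means were 0.47 ± 0.32 (SE) for genotype, 0.02 ± 0.32 for passage and 0.63 ± 0.32 for background, with limma adjusted p of 0.716, 0.975 and 0.472. The genotype value was 0.18 without the late Smurf2-/- C57B6 array and 0.24 without the late wild-type C57B6 array. The background value was 0.39 without the late wild-type C57B6 array and 0.40 without the early Smurf2-/- C57B6 array.

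Hspg2, the perlecan gene, stood at -0.17 (late mixed BL), -0.03 (early mixed BL), -0.13 (late C57B6) and 0.77 (early C57B6) in Smurf2-/- arrays, and at -0.47, 0.03, 0.55 and 0.50 in wild-type arrays. It was lower in mixed BL in 4 of 4 pairs, by -0.03 and -0.80 in late and early Smurf2-/- cells and by -1.02 and -0.47 in late and early wild-type cells. All 4 pairs lower was found for 9.93% of genes. The mean of -0.58 ± 0.17 (SE, 1.49-fold) had an unadjusted p of 0.0153 and a limma adjusted p of 0.249. Genotype and passage differences were -0.04 ± 0.17 and -0.37 ± 0.17 (SE, limma adjusted p = 0.947 and 0.334). Without the late Smurf2-/- C57B6 array these were 0.13 and -0.20. Hspg2 ran opposite to Vcan over the 8 arrays (r = -0.79, and -0.77 without the late Smurf2-/- C57B6 array), as a description.

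**Figure D3:**
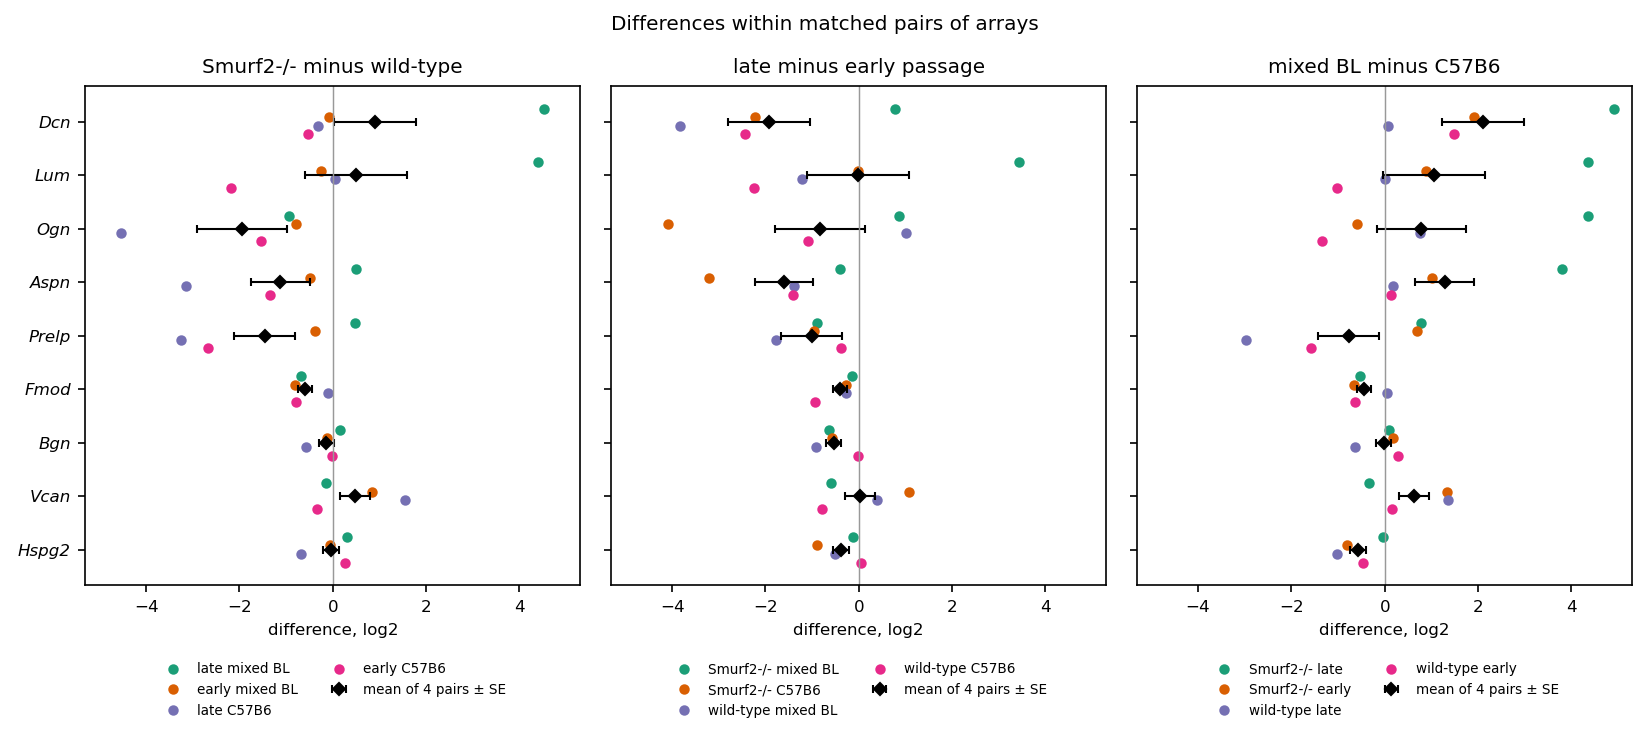
Differences (horizontal axis, log2) within the 4 matched pairs of arrays for Smurf2-/- minus wild-type, late minus early and mixed BL minus C57B6; coloured dots are single pairs and black diamonds the mean of the 4 pairs with its standard error from limma. For Dcn and Lum 1 pair, late mixed BL, lies at 4.52 and 4.40 in the genotype panel and the others between -2.17 and 0.05, whereas Fmod lies below 0 in all 4 pairs.

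Considered as a set, 0 of the 9 members passed the limma test at an adjusted p under 0.05 in any of the 3 factor comparisons or the 3 interactions. Among all genes, 0.0286% were called for genotype, 0.0171% for passage and 0.08% for background, and 0 for each interaction. By unadjusted p under 0.05, 1 of 9 was found for genotype (Fmod, against 7.55% of all genes), 3 of 9 for passage (Bgn, Aspn and Fmod, against 17.3%), 2 of 9 for background (Hspg2 and Fmod, against 13.5%), and 0 of 9 for the interaction of genotype with passage (against 5.35%). For late against early, 8 of 9 members were lower, with a median of -0.53, against 7444 of all 17501 genes and a median of 0.03. The 8 include Lum, at only -0.01 ± 1.09 (SE). The member median was -0.90 in Smurf2-/- C57B6, -0.95 in wild-type C57B6 and -0.92 in wild-type mixed BL cells, but -0.15 in Smurf2-/- mixed BL cells. The fibroblast markers were lower in 10 of 10, with a median of -0.34 and 4 of 10 at an unadjusted p under 0.05, and their part in the passage values of the members and of the enzymes below was not tested. For Smurf2-/- against wild-type, 6 of 9 were lower, with a median of -0.14 (all genes 0.02). The member median was -0.78 in early and -0.57 in late C57B6, and -0.26 in early and 0.31 in late mixed BL. For mixed BL against C57B6, 5 of 9 were higher and 4 lower, with a median of 0.63 (all genes 0.0046). That median is the value of Vcan and not a shift shared by the members. The 5 higher members lay between 0.63 and 2.10, and the 4 lower between -0.77 and -0.02. By pair, the median of the members was 0.70 in early and 0.77 in late Smurf2-/- cells. It was -0.47 in early and 0.05 in late wild-type cells. In no comparison did the Smurf2-/- and wild-type, the late and early, or the mixed BL and C57B6 arrays of any member lie apart without overlap. Among all genes 1.14% lay apart as higher and 1.02% as lower in Smurf2-/- arrays, 5.44% and 4.59% in late arrays, and 3.02% and 2.89% in mixed BL arrays.

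The share of a gene's variation that fell on each factor differed among members. Passage took 65.2% of the sum of squares of Bgn, background 52.8% of that of Hspg2, and genotype 42.6% of that of Fmod. Prelp divided between genotype (34.0%) and the interaction of genotype with background (36.3%), and Lum between genotype-by-passage (35.2%) and genotype-by-background (29.1%) terms. For Vcan 42.3% lay in the 3-way interaction. The largest shares of Dcn fell on background (32.7%) and passage (27.5%). The design holds no replicate of a condition, so the spread between arrays enters all of these shares, not only the 3-way term. How much of each share is such spread cannot be told. The shares were not tested or set against those of all genes, and are a description.

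**Figure D4:**
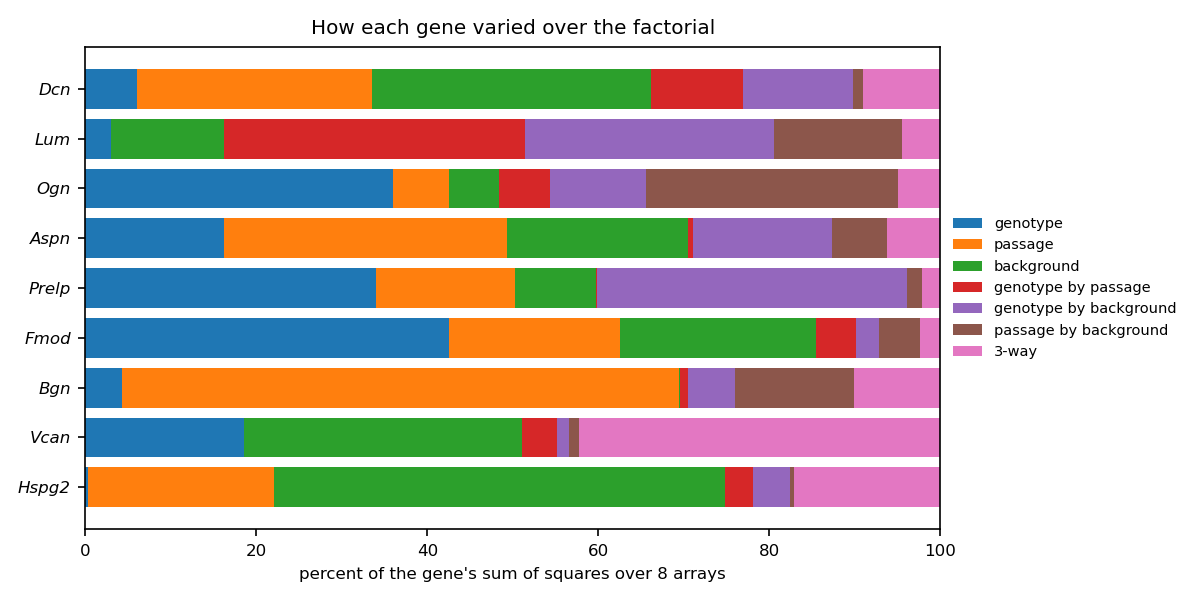
Stacked bars of the percent of each gene's sum of squares over the 8 arrays (horizontal axis) that falls on genotype, passage, background and their interactions, with 1 bar per gene. Bgn is taken up mostly by passage (65.2%) and Hspg2 by background (52.8%), whereas Vcan has its largest share, 42.3%, in the 3-way term.

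Among the 36 pairs of members, 25 had r above 0, 10 had r above 0.5 and 2 had r below -0.5 over the 8 arrays. The neighbours Fmod and Prelp had r = 0.56. The genes whose profiles were most like those of the members, by Pearson's r over the 8 arrays among 17501 genes, included no other member. They were Smim14 and Tmem115 for Bgn (r = 0.98 each), Lactb2 and Afg3l2 for Dcn (r = 0.98 and 0.97), Wbp4 and Stxbp4 for Lum (r = 0.98 each), and Ppp3ca and Vps37a for Ogn (r = 0.99 and 0.97). Capn7 and Anxa7 were closest to Aspn (r = 0.99 each), Kbtbd3 and Atrip to Fmod (r = 0.97 and 0.93), Cox19 and Slc11a2 to Prelp (r = 0.97 and 0.96), Cfap54 and Zswim7 to Vcan (r = 0.98 and 0.97) and Plekho2 and Scarna17 to Hspg2 (r = 0.97 and 0.96). With 8 points and so many genes, values of this size describe likeness of shape only, and the ranges of these genes were from 0.18 to 1.70 log2 units.

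The machinery that builds and cuts the sugar chains was counted next, since most of the 9 core proteins can carry such chains. Of the 11 measured genes for the linker sugar and its precursors, 10 were lower at late passage, with a median of -0.28 and 7 of 11 at an unadjusted p under 0.05 (17.3% of all genes), the smallest for the glucuronyltransferase gene B3gat3 at -0.42 ± 0.08 (SE, limma adjusted p = 0.123). Chondroitin and dermatan sulfate enzymes were lower in 13 of 16, with a median of -0.31 and 7 of 16 at an unadjusted p under 0.05, led by Dsel, a dermatan sulfate epimerase, at -0.61 ± 0.09 (SE, limma adjusted p = 0.104). Heparan sulfate enzymes were lower in 11 of 16, with a median of -0.16, and the sulfatase gene Sulf1 stood at -1.20 ± 0.26 (SE, limma adjusted p = 0.135). Keratan sulfate enzymes had a median of 0.01, with 2 of 5 lower and Chst2 at -0.96 ± 0.30 (SE, limma adjusted p = 0.213). Proteases that cleave proteoglycans, with their inhibitor Timp3, were lower in 6 of 9 with a median of -0.54, and Adamts5 stood at -0.998 ± 0.34 (SE, limma adjusted p = 0.232). None of these genes passed the test over all genes.

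Related proteoglycans and their partners were counted in the same way. Cell surface proteoglycans were lower at late passage in 9 of 12, with a median of -0.33, and the syndecan gene Sdc3 stood at -0.98 ± 0.15 (SE, limma adjusted p = 0.107, lower in 4 of 4 pairs). Other small leucine-rich genes, 8 of 11 measured, had a median of -0.02, with 5 lower and Podnl1 at 0.42 ± 0.16 (SE, limma adjusted p = 0.262). The hyaluronan and lectican list, 12 of 15 measured, had a median of 0.02 with 5 lower, and the link protein gene Hapln4 stood at 0.86 ± 0.20 (SE, limma adjusted p = 0.149). Basement membrane and other secreted proteoglycans with their laminin and nidogen partners, 15 of 16 measured, had a median of 0.07 with 5 lower, and the laminin gene Lamb1 stood at -0.55 ± 0.18 (SE, limma adjusted p = 0.227).

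For Smurf2-/- against wild-type, list medians ran from -0.32 for the cleaving proteases (6 of 9 lower, Timp3 at -0.71 ± 0.38) to 0.08 for the linker genes (4 of 11 lower, the sulfate donor gene Papss2 at -0.68 ± 0.25). The median was -0.22 for cell surface proteoglycans (8 of 12 lower, Sdc3 at -0.46 ± 0.15) and -0.13 for chondroitin and dermatan sulfate enzymes (10 of 16 lower, Chpf2 at -0.40 ± 0.18). In the same comparison Sulf1 stood at -1.01 ± 0.26, the laminin gene Lama5, whose protein binds perlecan networks in basement membranes, at -1.20 ± 0.29, Ecm2 at -0.24 ± 0.08, Tnfaip6 at 0.76 ± 0.31 and Chst2 at 0.41 ± 0.30 (all SE). Their limma adjusted p lay between 0.651 and 0.726, and none passed.

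For mixed BL against C57B6 the cleaving proteases and Timp3 had a median of 0.49 (6 of 9 higher), with the procollagen protease gene Bmp1 at -0.82 ± 0.22 (SE). The other list medians lay between -0.09 for cell surface proteoglycans and 0.09 for heparan sulfate enzymes. Named by the smallest p, Sdc3 stood at -0.77 ± 0.15, Lama5 at -1.24 ± 0.29, B4galt7 at 0.52 ± 0.11, Csgalnact1 at 0.70 ± 0.19, Hs6st2 at -0.65 ± 0.16, Chst2 at 0.89 ± 0.30, Hapln4 at 0.46 ± 0.20 and Podnl1 at 0.28 ± 0.16 (all SE). Their limma adjusted p lay between 0.154 and 0.530, and none passed.

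**Figure D5:**
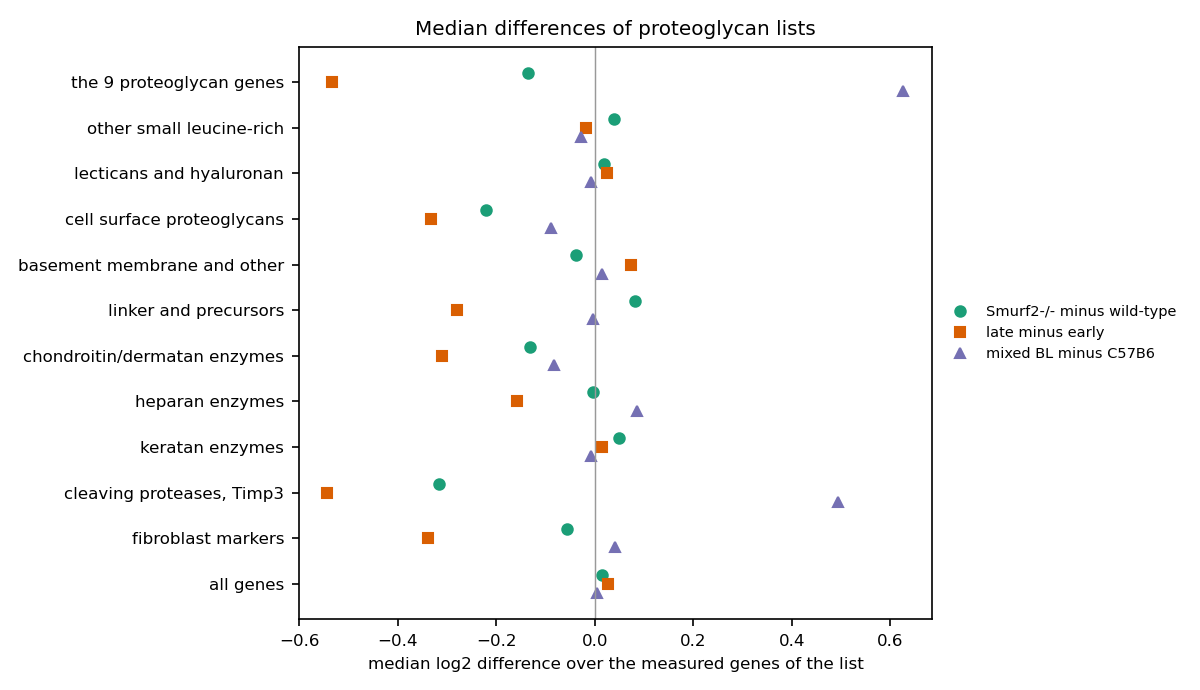
Median log2 difference (horizontal axis) over the measured genes of each proteoglycan list, of the fibroblast markers and of all genes, for Smurf2-/- minus wild-type (circles), late minus early (squares) and mixed BL minus C57B6 (triangles). The 9 proteoglycan genes have medians of -0.14, -0.53 and 0.63, the last over 5 higher and 4 lower members. The linker and chondroitin lists lie at -0.28 and -0.31 for passage.

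Markers of other cell types had medians between -0.06 and 0.25 in all 8 arrays for macrophages (9 of 9 measured), endothelium (7 of 7) and epithelium (7 of 7). Single markers differed by more than these medians. The macrophage gene Lyz2 differed by 1.29 ± 0.52 (SE, limma adjusted p = 0.369) for mixed BL against C57B6, where 7 of 9 macrophage markers were higher. Cd68 differed by -0.89 ± 0.15 (SE, limma adjusted p = 0.113) for late against early, where 6 of 9 were lower. Smooth muscle markers (6 of 6) stood at -0.73 in both late Smurf2-/- arrays and at -0.30 to 0.42 elsewhere. Cartilage markers (8 of 8) stood at 0.62 in early wild-type C57B6 cells, the array in which Prelp, Fmod and Ogn were highest, and at -0.19 to 0.32 elsewhere. For Smurf2-/- against wild-type, 7 of 8 cartilage markers were lower, with Col2a1 at -2.13 ± 0.51 (SE, limma adjusted p = 0.651). The part of these markers in the results was not tested.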

How the data were processed

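The deposited log2 values of 24169 transcript clusters on 8 arrays were used as given in the series matrix. The authors had centred these log2 values on the median of each cluster, since no row median exceeded 5e-07 in size. The log base was inferred from the values, of which 96.8% of clusters held only multiples of 4.77e-07 (tolerance 6e-08), the step of single-precision numbers from 4 to 8. How arrays were normalised and probes summarised is not given in the sources used here. Builds mm8 and mm9 appear in the submitters' processing notes, with no stated use. Gene names came from a gene-level array annotation that the identifiers fit, although an exon array is named for the series.

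Of the clusters, 19134 had 1 symbol, 1230 several and 3805 none. Clusters of 1 symbol were averaged into 17501 genes, 899 of them with more than 1 cluster; 19067 symbols were updated through gene identifiers with RefSeq (GRCm38.p6). Members and gene lists were chosen with earlier results of these data known.

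All genes were fitted with limma 3.58.1 in R 4.3.3, without a trend, on genotype, background and passage class (4 residual degrees of freedom), adding each interaction in turn (3 degrees of freedom). P-values were two-sided and Benjamini-Hochberg adjusted, with a threshold of 0.05. The scripts were tested on simulated data. Replicate numbers at the end of the titles follow passage class (1 early, 2 late), which is a term of the model. All 9 members are described. From each pathway list the gene of the smallest p was named. For each member the 2 genes of the highest correlation were named. Alternatives were each array left out, quantile normalisation, median centring, single clusters, a variance trend, robust moderation, no X and Y genes, no small-range genes, all interactions, culture as a random block and no passage class. The number of arrays limits the precision.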

Additional observations from a re-analysis of the deposited data

Results flagged for a closer look

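In groups of 4 arrays of 1 genotype, passage class or background, 5 of 54 sets of member values held 1 array far from the other 3 by Dixon's ratio. The limit of that ratio is set so that chance gives about 1 in 20 among replicates. The 4 arrays of a set were different conditions and the sets shared arrays, so 5 of 54 cannot be judged against that rate. Among the late arrays, Dcn at 2.44 and Lum at 3.89 in Smurf2-/- mixed BL cells stood far above the other 3, which lay from -2.49 to -2.09 and from -0.52 to -0.47. Among the C57B6 arrays, Lum in early wild-type cells at 1.73 stood above -0.52 to -0.44, and Bgn in late Smurf2-/- cells at -0.56 below -0.0015 to 0.01. Among the Smurf2-/- arrays, Hspg2 in early C57B6 cells at 0.77 stood above -0.17 to -0.03.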

How the results depend on the processing

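None of the 9 members passed the adjusted threshold under any alternative run, with a smallest limma adjusted p of 0.0787, for Hspg2 between backgrounds without the late Smurf2-/- C57B6 array. Of 490 alternative values of 28 member results, 469 kept their direction, 19 turned sign when 1 array was left out and 2 under quantile normalisation (Hspg2 for genotype at 0.0037, Lum for passage at 0.12). With each array left out, those that turned ranged for genotype from -0.27 to 0.033 (Bgn), -0.11 to 1.35 (Dcn), -0.75 to 1.45 (Lum) and -0.15 to 0.13 (Hspg2), for passage from -1.27 to 0.94 (Lum), -1.56 to 0.26 (Ogn) and -0.27 to 0.26 (Vcan), and for background from -0.11 to 0.15 (Bgn), -0.20 to 2.01 (Lum) and -0.30 to 1.52 (Ogn).

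Counts of genes called over all genes were unstable. The 5 for genotype became 0 to 1 with an array left out, 0 under quantile normalisation, median centring, all interactions or no X and Y genes, 3 with single clusters or a variance trend, and 1 with robust moderation. The 3 for passage became 0 to 2 with an array left out, 0 under median centring, single clusters, robust moderation, all interactions or culture as a random block, 25 with a trend and 33 without small-range genes. The 14 for background became 1 to 21 with an array left out, 1 under quantile normalisation or all interactions, 7 under median centring, 66 with single clusters, 28 with a trend, 5 with robust moderation, 8 without X and Y genes and 148 with culture as a random block. With no replicate block, that is without the passage class, the counts were 4 for genotype and 14 for background, and 0 for their interaction. The 5 genes called for genotype were Smurf2 and the sex chromosome genes Xist, Eif2s3y, Kdm5d and Uty. The setting without X and Y genes leaves the sex chromosome genes out. For culture as a random block, arrays taken to share a culture had a consensus correlation of -0.245. The cause of the other changes was not tested. With 1 array per combination the design holds no replicate of a condition, and centred values give no signal over background.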
